A study of Mus musculus with 6 samples.

Results

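Heat shock chaperones keep proteins folded in the cytosol and in mitochondria. HSP70 proteins bind exposed stretches of unfolded chains under the control of J-domain partners and of HSP110 exchange factors, HSP90 finishes the folding of kinases and receptors, chaperonins enclose a chain in a ring, and small heat shock proteins hold it from aggregating. The heat shock factors bind repeated GAA units in promoters and switch many of these genes on when unfolded protein accumulates, and keratinocytes are known for a high basal level of the small heat shock protein Hspb1. The genes were taken from a list of 34 by gene symbol: every probe set annotated to 1 listed symbol counted, and the probe set with the highest mean over the 6 arrays stood for its gene. Of the 34 genes 32 were measured, on 90 probe sets of the 45037 tested. Hsp90ab1 and Hsf1 were not matched and are not analysed here.

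RNA came from primary keratinocytes, which form the epidermis and had been isolated from newborn mice of a C57BL6/FVB background and cultured. Every medium, for controls and knockouts alike, held 100 nM sodium selenite. The knockout had lost Gpx4, a selenoprotein that reduces lipid hydroperoxides, through a cre recombinase under the Keratin-14 promoter, which is active in basal keratinocytes and leaves Gpx4 in cells that do not use it. Controls are labelled only as control, and whether they carried cre or floxed alleles is not stated there. Each of litters A, B and C gave 1 array of pooled control cells and 1 of pooled knockout cells, 3 arrays per genotype, and the comparison was made within litters. The comparison asks how chaperone RNA differed between Gpx4 knockout and control keratinocytes of a litter.

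Levels are quantile-normalized probe set intensities, given in the order of litters A, B and C. Each log2 change is the fitted difference of log2(intensity + 16), knockout less control within litters, with its SE from limma; the added 16 makes changes of dim genes look smaller than they were. Adjusted p-values are from limma with Benjamini-Hochberg adjustment over all 45037 probe sets, and a gene is called at an adjusted p under 0.05. Precision is limited by having 3 arrays a genotype. An intensity depends on its probes, so levels are compared between arrays and not between genes. Gpx4 had 497, 551 and 536 in controls and 212, 259.7 and 216 in knockouts (log2 change -1.15 ± 0.09, adjusted p = 0.0206). The pools also differed in sex-linked RNA. The Y-linked Eif2s3y had 156, 178 and 185 in controls and 3.20, 0.70 and 4.60 in knockouts, and Xist of the X chromosome had 502, 389 and 536 and 1229, 1214 and 1259.8. These values go with genotype in all 3 litters, so sex and genotype cannot be told apart in any value below. The keratinocyte keratins Krt5 and Krt14 had means of 6873 and 6522 in controls and 6741 and 6679.9 in knockouts, and the summed level of 10 keratinocyte markers was 31739 to 34456 and 31499 to 32350.2, with none called. These sums are carried by the brightest genes. Of the 10 keratinocyte markers 7 had negative values and 3 an unadjusted p under 0.05, all lower: Trp63 (-0.43 ± 0.08, adjusted p = 0.0816), the 1 marker whose knockouts all lay below the controls, Col17a1 (-0.36 ± 0.11, adjusted p = 0.213) and Lamb3 (-0.50 ± 0.19, adjusted p = 0.296). The summed level of 8 melanocyte markers was 4597 to 4767 in controls and 6397 to 7000.2 in knockouts, and 2 of them (Tyrp1 and Mlana) were called higher. All 8 had positive values, and 7 (87.5%) had an unadjusted p under 0.05 and knockouts above the controls. The shares over all probe sets were 14.6% at such a p and 18.2% without overlap. That of 8 fibroblast markers was 196.9 to 575.9 and 420.2 to 636.9, the highest control being that of litter C, with none called. Of these 8, 6 had positive values and 2 negative ones, with a median log2 change of 0.54. An unadjusted p under 0.05 was reached by 4, all higher: Col1a1, Col1a2, Twist2 and Pdgfra. Only Pdgfra had all knockouts above the controls. The summed level of 10 muscle markers was 2462 to 3669 and 3568 to 3810, with Myl7 and Actg2 called higher and Acta2 making up most of the sum. Of the 10, 8 had positive values, and 6 higher and 1 lower had an unadjusted p under 0.05. The lower 1 was the dim Cnn1, whose knockouts all lay below the controls (-0.75 ± 0.14, adjusted p = 0.0931). Acta2 was the other negative marker (-0.14 ± 0.15). The 6 endothelial markers summed to 23.6 to 37.5 and 30.4 to 42.3 and the 7 immune markers to 67.2 to 140.6 and 90.6 to 149.3, with none called. At an unadjusted p under 0.05 were 0 of the endothelial and 2 of the immune markers, both higher. All 6 endothelial and 4 of the immune markers had means under 16, and no marker was at 0 on all arrays. The part of these cells in the chaperone values was not tested, and in RNA from pooled cells fewer cells of a type and less RNA per cell cannot be told apart.

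The promoters below were searched for the paired GAA units that heat shock factors are known to bind. They are RefSeq sequences of GRCm38.p6, read 5′ to 3′ on the gene's strand, with matches to GAANNTTC or TTCNNGAA in capitals. Hspa1a and Hspa1b, neighbouring copies of the inducible HSP70 gene, are shown because their arrays gave lower values in the knockout and because they can hardly be told apart: 149 of the 150 bases before their starts are the same. Hspb1 is shown as another lower gene, with 2 such motifs. Hspe1 and Hspd1 are transcribed away from each other from starts 216 bases apart and gave higher values; the 30 bases printed lie between those starts and hold a run of 3 overlapping matches. Another annotated Hspd1 start lies 95 bases past that of Hspe1. Hspa4l and Dnajb1, the members with the lowest log2 changes, are shown because neither motif occurs in their windows.
Hspa1a, chr17:34972157-34972306 (- strand): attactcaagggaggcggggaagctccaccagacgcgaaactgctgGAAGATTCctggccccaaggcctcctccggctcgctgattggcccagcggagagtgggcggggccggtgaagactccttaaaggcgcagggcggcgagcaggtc
Hspa1b, chr17:34959239-34959388 (- strand): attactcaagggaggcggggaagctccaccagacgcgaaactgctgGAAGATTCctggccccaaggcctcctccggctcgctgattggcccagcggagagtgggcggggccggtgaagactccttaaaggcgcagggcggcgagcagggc
Hspb1, chr5:135887769-135887918 (+ strand): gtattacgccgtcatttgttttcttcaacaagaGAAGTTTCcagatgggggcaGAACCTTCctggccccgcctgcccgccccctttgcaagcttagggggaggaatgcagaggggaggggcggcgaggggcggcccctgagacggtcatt
Hspe1 and Hspd1, chr1:55088053-55088082 (+ strand): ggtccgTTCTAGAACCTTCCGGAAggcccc
Dnajb1, chr8:83608025-83608174 (+ strand): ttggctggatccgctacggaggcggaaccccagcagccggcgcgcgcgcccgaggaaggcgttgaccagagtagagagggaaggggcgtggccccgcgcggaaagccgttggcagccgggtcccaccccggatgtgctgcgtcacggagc
Hspa4l, chr3:40745463-40745612 (+ strand): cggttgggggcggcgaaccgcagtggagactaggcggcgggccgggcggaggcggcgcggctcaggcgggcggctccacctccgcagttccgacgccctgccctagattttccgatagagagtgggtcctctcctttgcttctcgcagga

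The chaperones lay on both sides of 0. Of the 32 genes 0 were called by limma in either direction, against 0.42% of all probe sets, and 16 had an unadjusted p under 0.05, 10 higher and 6 lower in the knockout. Over all probe sets 14.6% reached an unadjusted p under 0.05, 7.06% with a higher and 7.58% with a lower value. These genes are brighter than most, and among the 6206 named genes with a mean of at least 100, a background added after the values were seen, 30.2% reached it, 14.9% with a higher and 15.4% with a lower value. The 3 knockout arrays lay above the 3 controls for 11 members and below them for 6, where 8.79% and 9.43% of all probe sets did so. Among the 6206 brighter genes 29.9% did not overlap in either direction. The median log2 change of the 32 was 0.04, against 0.0018 over all probe sets (-0.12 and -0.07 with intensities as deposited), with the lowest member at -0.79 and the highest at 0.78. By role the medians were -0.07 for 7 HSP70 genes, 0.42 for 3 HSP110 genes, 0.20 for 4 genes of HSP90 and its co-chaperones, 0.23 for 5 chaperonin subunits, -0.07 for 3 small heat shock proteins and Bag3 taken as 1 group and -0.02 for 8 J-domain proteins.

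**Figure D1:**
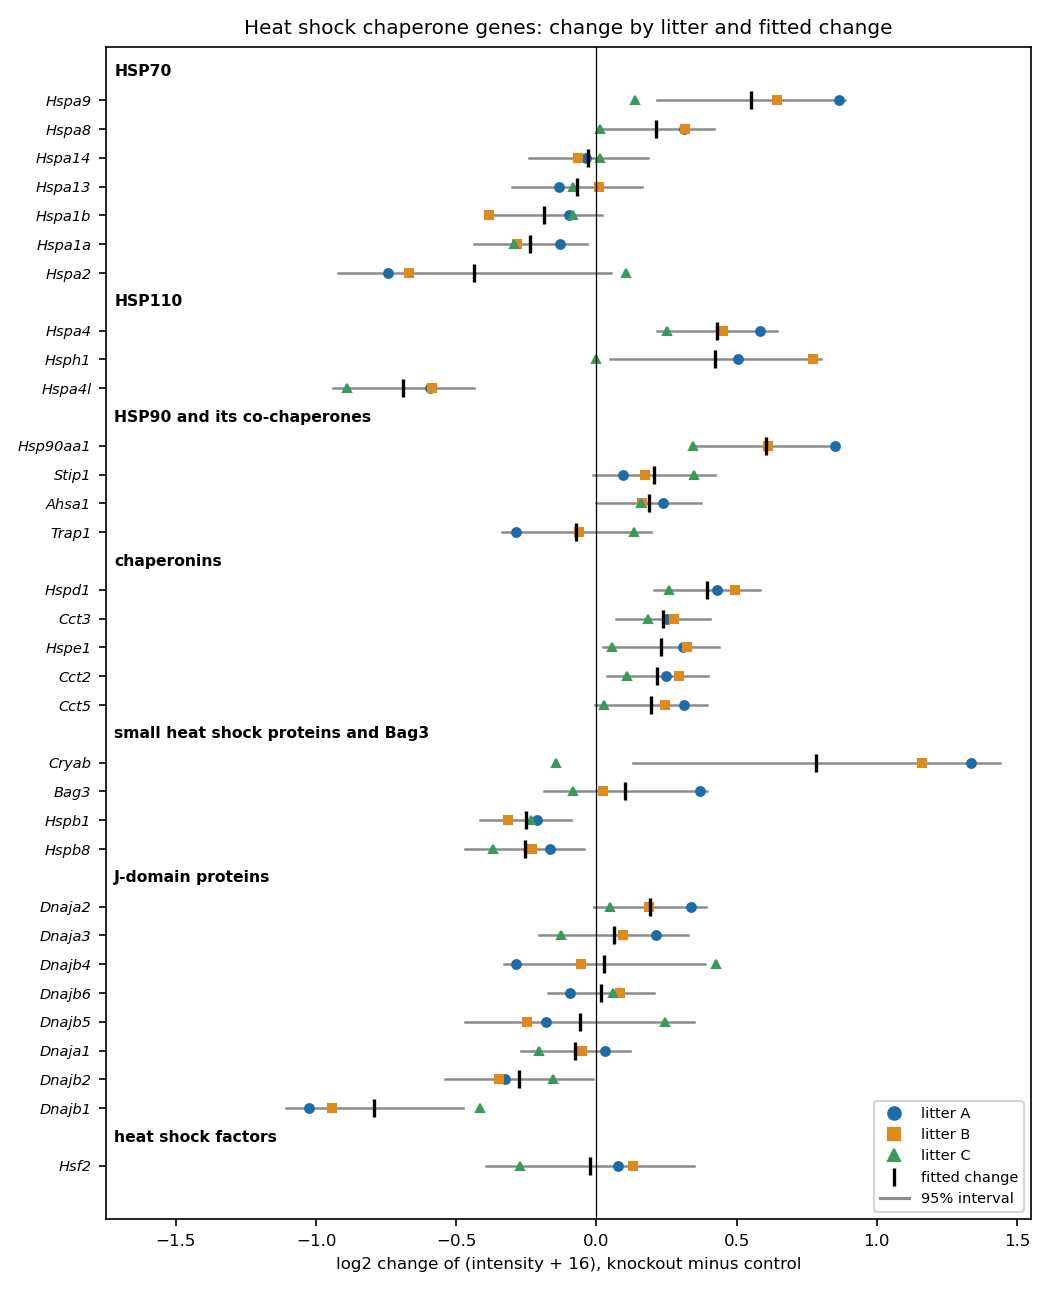
Log2 change of (intensity + 16), knockout minus control, for the 32 measured chaperone genes, grouped by role. Coloured points are the differences in litters A, B and C, black marks the fitted change and grey lines its 95% interval. All 5 chaperonin subunits lie above 0 in the 3 litters, while Dnajb1 and Hspa4l lie farthest below 0.

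The HSP70 genes had values of both signs. Hspa1a, the stress-inducible cytosolic HSP70, had 635, 634 and 649 in controls and 579.5, 518 and 527 in knockouts, a log2 change of -0.24 ± 0.08 (adjusted p = 0.274). All 3 knockouts lay below the controls, and the controls lay close together. Its twin Hspa1b had 3776, 4302 and 3245 and 3530, 3292 and 3063, which overlapped (-0.19 ± 0.09, adjusted p = 0.38). The 2 other Hspa1b probe sets gave -0.41 ± 0.10 and -0.41 ± 0.11 with no overlap (adjusted p = 0.144 and 0.163). Probes of one copy may bind RNA of the other, so which of the pair a signal came from is uncertain. Hspa8, the constitutive cytosolic HSP70, had 4392, 4038 and 4366 in controls and 5450.2, 5028 and 4405 in knockouts (0.21 ± 0.09, adjusted p = 0.327). The knockouts lay above the controls, by little in litter C. Hspa9, the mitochondrial HSP70 that pulls proteins through the inner membrane, had 1174, 1248 and 1684 and 2153, 1961 and 1856, a log2 change of 0.55 ± 0.14 (adjusted p = 0.154). Its differences were 0.87, 0.64 and 0.14 in litters A, B and C, and the control of litter C was the highest control. Hspa2, best known from the testis, had 69.3, 69.8 and 51.1 and 35, 37.9 and 56.2, lower in litters A and B only (-0.44 ± 0.20, adjusted p = 0.387). Hspa13 and the ribosome-associated Hspa14 had log2 changes of -0.07 ± 0.10 and -0.03 ± 0.09, with 95% intervals from -0.30 to 0.16 and from -0.24 to 0.18.

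The HSP110 genes, which encode nucleotide exchange factors of HSP70, had values of both signs too. Hspa4l had 302, 332 and 428 in controls and 194, 216 and 224 in knockouts. Every knockout lay below every control, 1.61-fold lower in the fit (-0.69 ± 0.10, adjusted p = 0.0641), and its difference was widest in litter C (-0.60, -0.59 and -0.89). Its paralog Hspa4 had 1048, 1174 and 1209 and 1580, 1609 and 1444, 1.35-fold higher with no overlap (0.43 ± 0.09, adjusted p = 0.11). The third, the heat-inducible Hsph1, had 169, 164 and 301 and 246, 291 and 300.2 (0.42 ± 0.16, adjusted p = 0.289). In litters A and B its knockout was higher, and in litter C the values were nearly equal, with the control at the level of the knockouts.

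Among the J-domain proteins, which hand substrates to HSP70 and start its ATP hydrolysis, Dnajb1 stood lowest. This heat-inducible HSP40 had 1094, 1086 and 664 in controls and 529.8, 558 and 494 in knockouts, 1.73-fold lower in the fit (-0.79 ± 0.13, adjusted p = 0.0738). The groups did not overlap, and the control of litter C was far below the other controls, and the difference was -1.02, -0.94 and -0.41 in litters A, B and C. Dnajb2 had 152, 165 and 128 and 118, 126 and 114, again without overlap (-0.28 ± 0.11, adjusted p = 0.32). Dnaja2, a general HSP70 partner, had 1506, 1686 and 1713 and 1907, 1920 and 1773 and was the 1 J-domain gene whose knockouts all lay above the controls (0.19 ± 0.08, adjusted p = 0.362). The remaining 5 overlapped and had differences of either sign. Their log2 changes were -0.08 ± 0.08 for Dnaja1, 0.06 ± 0.11 for the mitochondrial Dnaja3, 0.03 ± 0.15 for Dnajb4, -0.06 ± 0.17 for Dnajb5 and 0.02 ± 0.08 for Dnajb6, an aggregation suppressor, and those of Dnaja3, Dnajb4 and Dnajb6 were negative with intensities as deposited. Dnajb5 was dim, at 36.9 in controls and 34.5 in knockouts.

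**Figure D2:**
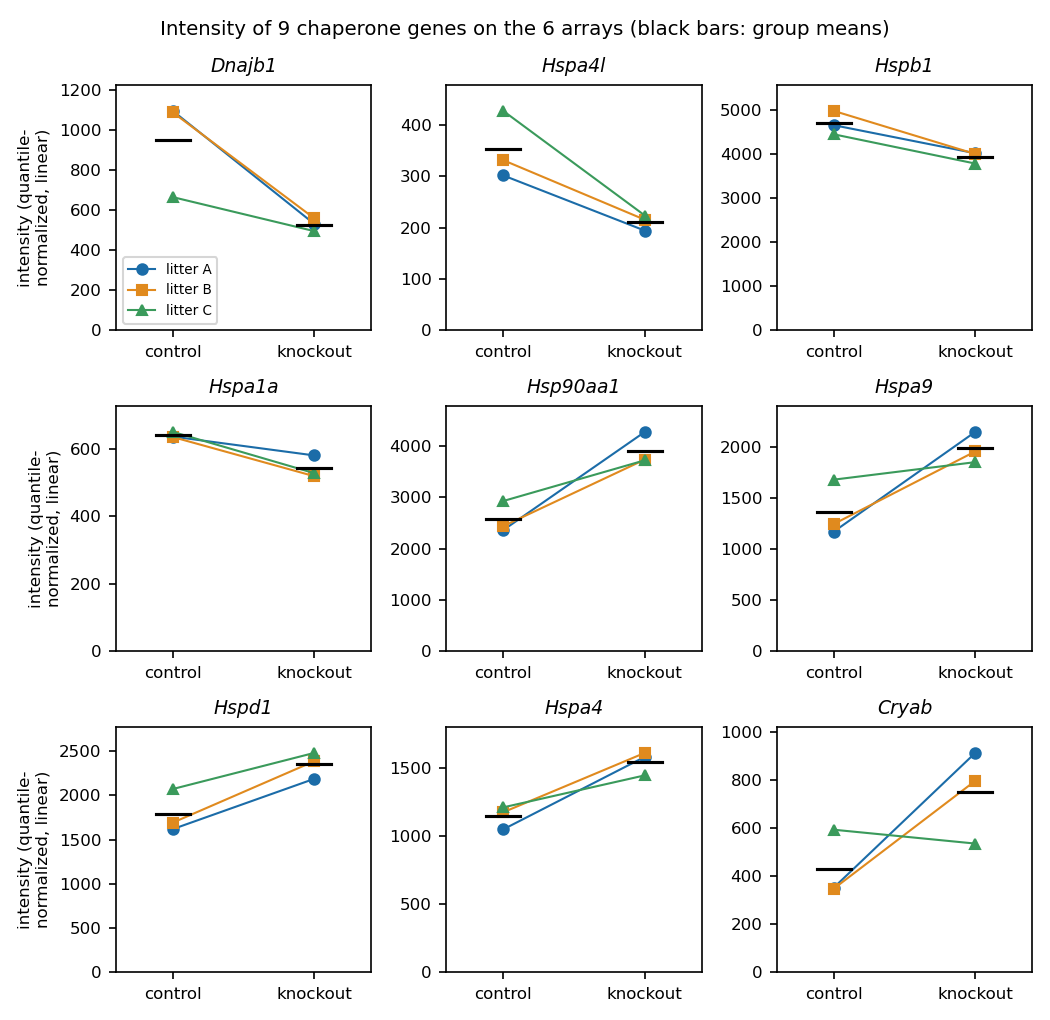
Quantile-normalized intensity (linear, from 0) of 9 chaperone genes on the control and knockout arrays, with lines joining the arrays of a litter and black bars at group means. Knockouts lie below controls for Dnajb1, Hspa4l, Hspb1 and Hspa1a and above them for Hsp90aa1, Hspa9, Hspd1 and Hspa4, while Cryab crosses in litter C.

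HSP90 itself was represented by Hsp90aa1, the stress-responsive cytosolic isoform. It had 2362, 2439 and 2929 in controls and 4277, 3738 and 3723 in knockouts. All knockouts lay above all controls, 1.52-fold in the fit (0.60 ± 0.11, adjusted p = 0.0816), and the litters gave 0.85, 0.61 and 0.34. Ahsa1, which activates the HSP90 ATPase, had 571, 642 and 645 and 676, 721 and 721, higher by a similar amount in each litter (0.19 ± 0.08, adjusted p = 0.347). Stip1, the adaptor that links HSP70 to HSP90, had a log2 change of 0.21 ± 0.09 with overlapping groups, and the mitochondrial HSP90 Trap1 one of -0.07 ± 0.11 (95% interval -0.34 to 0.19).

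By their brightest probe sets all 5 measured chaperonin subunits of the list were higher in the knockout of every litter without overlap. Over all probe sets 8.79% had knockouts above controls. The differences were small and 0 of the 5 were called. Hspd1, the mitochondrial HSP60 ring, had 1619.9, 1693 and 2073 in controls and 2189, 2389 and 2482 in knockouts (0.39 ± 0.08, adjusted p = 0.102). Hspe1, the HSP10 lid of that ring, had 985, 1152 and 1216 and 1224, 1447 and 1265 (0.23 ± 0.09, adjusted p = 0.3). In both the control of litter C was the highest control. Cct2, Cct3 and Cct5 are subunits of the cytosolic ring that folds actin and tubulin. Cct2 had 2403, 2136 and 2318 and 2856, 2625 and 2498 (0.22 ± 0.07, adjusted p = 0.26). For Cct3 the values were 1979, 1973 and 2137 and 2362, 2391 and 2426 (0.24 ± 0.07, adjusted p = 0.203). For Cct5 they were 2081, 2309.9 and 2353 and 2589, 2737 and 2395 (0.19 ± 0.08, adjusted p = 0.354). The ring has 8 kinds of subunit, and with the other 5 added after the values were seen all 8 had a positive log2 change, from 0.05 to 0.31 with a median of 0.22, and 7 did not overlap (87.5%, against 18.2% of all probe sets and 29.9% of named genes with a mean of at least 100). With intensities as deposited Tcp1 was negative, at -0.08, and the other 7 were positive with the median of the ring at 0.08. Named genes with a mean of at least 100 had a median of -0.0046. The 10 mitochondrial genes of folding and proteolysis, grouped after the values were seen, had 8 positive values and a median of 0.19, and 3 of them (Hspa9, Hspd1 and Hspe1) did not overlap (30%, close to the 29.9% of those genes). As deposited 5 of the 10 were positive and the median was -0.00086.

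Among the small heat shock proteins Hspb1 and Hspb8 were lower and Cryab was higher in 2 of 3 litters. Hspb1, the HSP27 of differentiating keratinocytes, had 4666, 4991 and 4459 in controls and 4027, 4010.2 and 3793 in knockouts, a small difference without overlap and of like size in each litter (-0.25 ± 0.07, adjusted p = 0.17). Hspb8, which works with Bag3 in sending aggregates to autophagy, had 426, 476 and 532 and 378, 403 and 409, also below the controls (-0.26 ± 0.09, adjusted p = 0.264). Bag3 itself had 0.10 ± 0.12, with overlap, and was negative with intensities as deposited. Cryab, the alphaB-crystallin abundant in lens and muscle, had 352, 348 and 594 in controls and 913, 797 and 536 in knockouts, the highest log2 change of the members (0.78 ± 0.27, adjusted p = 0.266). It was higher in litters A and B and lower in litter C (1.34, 1.16 and -0.14), so the groups overlapped. Its control in litter C lay above the other controls, as did the summed fibroblast markers of that array. The summed muscle markers were lowest there (2462, against 3642 and 3669), as was Acta2, which carries the sum (2859.9, 2882 and 1798 in controls). Myl7 (145.4, 149.6 and 68.9), Tnnt2 (102.8, 87 and 57.2), Acta1 (60.1, 50.9 and 25) and the dimmer Cnn1 were also lowest there among the controls. Actg2 (38.1, 31.4 and 44.4) and the dimmer Des and Ckm were highest there, and Tagln and Myh11 were neither. The part of these cells in the Cryab values was not tested.

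Hsf2, the heat shock factor measured, was dim, at 10.8, 9.70 and 15.2 in controls and 12.2, 12.2 and 9.80 in knockouts, where array medians before normalization were 15.9 to 20.4. Its groups overlapped (-0.02 ± 0.15, 95% interval -0.40 to 0.35) and its other probe set, dimmer still, gave 0.11 ± 0.10.

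Litter C held smaller differences than the others. The median size of the log2 difference over the 32 members was 0.29, 0.28 and 0.15 for litters A to C, against 0.24, 0.22 and 0.17 in named genes with a mean of at least 100. Of the 29 members with the same sign in litters A and B, 10 had the opposite sign in litter C, against 1687 of 4856 in those genes. Without litter C, with 2 litters left, 9 members were called, 6 higher and 3 lower, where 6.16% of all probe sets were called, 3.01% higher and 3.15% lower; in named genes with a mean of at least 100 the share called was 20.1%, against 28.1% of the members. Higher were Cryab (1.25 ± 0.09, adjusted p = 0.000901), Hspa9 (0.76 ± 0.08, adjusted p = 0.0049), Hsp90aa1 (0.73 ± 0.08, adjusted p = 0.00552), Hsph1 (0.64 ± 0.11, adjusted p = 0.0208), Hspa4 (0.52 ± 0.08, adjusted p = 0.0128) and Hspd1 (0.46 ± 0.07, adjusted p = 0.015). Lower were Dnajb1 (-0.98 ± 0.08, adjusted p = 0.00144), Hspa2 (-0.71 ± 0.16, adjusted p = 0.0489) and Hspa4l (-0.59 ± 0.09, adjusted p = 0.0147). These are calls of the brightest probe sets. Counting every probe set, 30 of the 90 were called, on 15 genes, where 6.16% of all probe sets were. That added Hspa1b and Hspb1 as lower and Hspa8, Hspa14, Cct2 and Cct3 as higher. Without litter A or without litter B 0 members were called by limma, with 7 and 6 of the 32 at an unadjusted p under 0.05. Of the 45037 probe sets 4143 and 3700 reached it in those fits.

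Probe sets that the choice of the brightest left out read the same genes at other positions. Of the 90 probe sets 41 had an unadjusted p under 0.05. Over all probe sets 14.6% did, and 30.2% of named genes with a mean of at least 100. More than 1 probe set was present for 25 genes, and those of a gene are repeat readings, so the 41 are not independent. The 5 Hspa4l probe sets lay between -0.79 and -0.69 and none overlapped (adjusted p = 0.0641 to 0.0816). Litter C was widest in the brightest but not in all 5. The second brightest had -0.90, -0.83 and -0.53 in litters A, B and C. Both Dnajb1 probe sets were lower without overlap, at -0.79 and -0.49, and both Hspb1 probe sets at -0.25 and -0.31. The 2 dimmer Hspb8 probe sets overlapped, at -0.17 ± 0.14 and -0.30 ± 0.21, with a positive difference in litter B for the first (0.08) and in litter C for the other (0.11). Of the Cryab probe sets the second brightest crossed in litter C like the brightest (1.38, 1.51 and -0.51 in the 3 litters), and the dimmest, at 2.60, 3.70 and 7.60 and 11.6, 12.6 and 11.9, was higher in every litter without overlap (0.45 ± 0.13, adjusted p = 0.204). The 3 Hsp90aa1 probe sets with a mean of 50 or more had 0.54 to 0.64 and those under 50 had -0.29 and 0.02. All 7 Cct3, 5 Hspa9 and 4 Hspa4 probe sets had positive values, though some of each gene overlapped. Of Hspa4 only the brightest was without overlap. The second brightest Hspa4 probe set gave 0.15 ± 0.17, with -0.33 in litter A, and -0.02 ± 0.15 without litter C. Hspa8 and Hspa14 depended on the probe set. The third brightest Hspa8 probe set had 2818, 2422 and 1774 in controls and 4619, 3367 and 3292 in knockouts, a log2 change of 0.69 ± 0.09 (adjusted p = 0.0514) that was the lowest adjusted p of the 90 probe sets. A dimmer Hspa14 probe set had 55, 52.8 and 54.1 and 108, 98.9 and 100.3, higher in each litter by 0.73 to 0.81 (0.76 ± 0.12, adjusted p = 0.0691), beside the brightest at -0.03 ± 0.09. The 3 Cct2 probe sets ran from 0.04 to 0.46, the 4 of Dnaja2 from -0.16 to 0.26 and the 3 of Dnajb5, all dim, from -0.51 to -0.06. Some further chaperonin probe sets overlapped. Among them were the dimmer one of Hspe1 (0.30 ± 0.09), the second brightest of Cct2 (0.04 ± 0.07) and the fourth brightest of Cct3 (0.22 ± 0.11). Those of Cct2 and Cct3 each had -0.055 in litter C. Others of Cct2 (0.46) and Cct3 (0.32) did not overlap. Probe sets whose names end in x_at can bind several genes, and the brightest ones of Hspa8, Cct2 and Cct3 are of this kind.

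**Figure D3:**
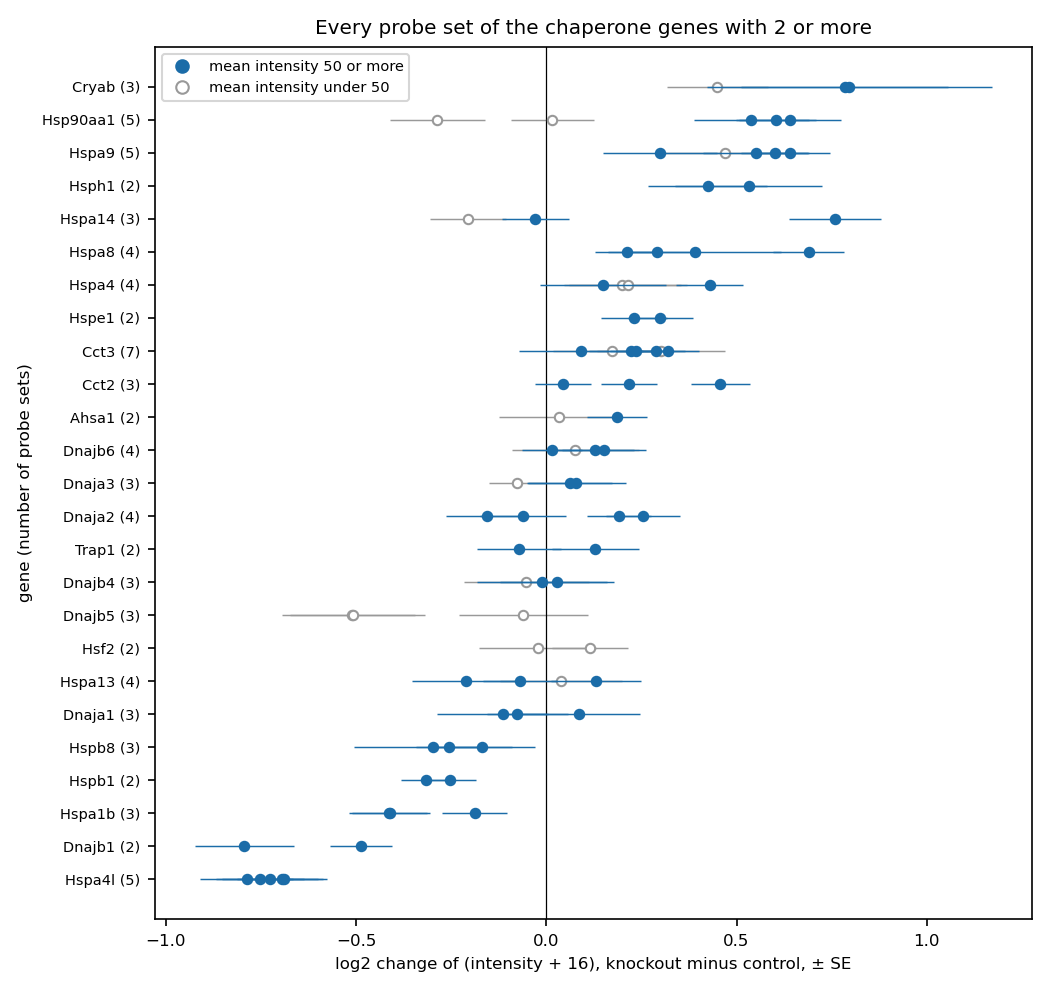
Log2 change ± SE of every probe set of the 25 chaperone genes with more than 1, filled where the mean intensity was 50 or more. The 5 Hspa4l probe sets lie together between -0.79 and -0.69, while those of Hspa14, Hspa8 and Cct2 spread.

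The other genes of the system were read from lists of their own. Of 55 measured chaperones and co-chaperones outside the members 0 were called by limma and 12 had an unadjusted p under 0.05, 7 higher and 5 lower, with a median of 0.05. That is 21.8%, between the 14.6% of all probe sets and the 30.2% of named genes with a mean of at least 100, as were the 16.7% of the heat shock factor targets and the 18.8% of the endoplasmic reticulum chaperones that follow, so these counts set no list apart. Those with the smallest p were Dnajc2 (0.39 ± 0.10, adjusted p = 0.154), a ribosome-associated J-domain protein, the CCT subunit Cct8 (0.31 ± 0.08, adjusted p = 0.161), the HSP90-binding Cacybp (0.26 ± 0.07, adjusted p = 0.182) and the prefoldin subunit Pfdn5 (-0.33 ± 0.10, adjusted p = 0.2). Of 12 measured further targets of heat shock factor 1, some of them also in that list, 0 were called (2 at an unadjusted p under 0.05), with a median of 0.09. Beside Cacybp they were led by Ier5 (0.33 ± 0.13, adjusted p = 0.317), Bag1 (-0.17 ± 0.08, adjusted p = 0.424) and Hspbap1 (0.22 ± 0.14, adjusted p = 0.526). Of 16 chaperones of the endoplasmic reticulum 0 were called and 3 had an unadjusted p under 0.05, all higher (median 0.08): Manf (0.27 ± 0.08, adjusted p = 0.184), Herpud1 (0.34 ± 0.12, adjusted p = 0.255) and Hspa5 (0.23 ± 0.09, adjusted p = 0.301); Hsp90b1 (0.18 ± 0.08, adjusted p = 0.382) followed. Of 26 proteasome subunits 0 were called, 2 (7.69%) had an unadjusted p under 0.05, both lower, and the median was 0.01. Psmb1 (-0.24 ± 0.07) and Psmc4 (-0.20 ± 0.08) were lower, and Psmc6 (0.22 ± 0.10) and Psmd14 (0.16 ± 0.07) followed.

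Members with a heat shock motif in the promoter had values of both signs. RefSeq windows from 250 bases before to 50 bases after the start were matched for 27 members. The 5 without a window were Hspa8, Hspa9, Hspa13, Hsp90aa1 and Cryab, among them the 3 with the highest log2 changes. GAANNTTC, which reads the same on both strands, occurred in 11 of the 27 (40.7%) against 9.04% of 27025 genes, and TTCNNGAA, also the same on both strands, in 6 (22.2%) against 9.6%. A run of 3 units, GAANNTTC followed by NNGAA or TTCNNGAA followed by NNTTC, searched on both strands, occurred in 4 members (14.8%) against 0.662% of genes. Those 4 had log2 changes of 0.42 (Hsph1), 0.39 (Hspd1), 0.23 (Hspe1) and 0.02 (Dnajb6). Hspd1 and Hspe1 are counted apart although their run is the same stretch of bases. Hspa1a and Hspa1b, nearly identical before their starts, are likewise counted apart among the 11. Members with GAANNTTC and no such run were Hspa1a, Hspa1b, Hspb1 and Hspb8 with negative values (-0.24, -0.19, -0.25 and -0.26) and Cct2 and Bag3 with positive ones (0.22 and 0.10); Dnaja1, the remaining 1, had -0.08. Cct5 and Dnajb4, which held TTCNNGAA alone, had 0.19 and 0.03. In Hspa1a and Hspa1b the capitals printed above start 104 bases before the gene start, in Hspb1 117 and 97 bases before, and in Hspe1 the run starts 89 bases before. A match describes the letters of the window and is no measure of binding.

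The level at which the arrays were set moved the members together. With intensities as deposited their median was -0.12, against -0.07 over all probe sets, and 14 of the 32 values were positive in place of 18. With the arrays brought to a common median it was -0.06. Dnaja3, Dnajb4, Dnajb6 and Bag3 turned from positive to negative under both, and the other 28 kept their sign. The lower genes then lay farther from 0, as Dnajb1 at -0.99 and Hspa4l at -0.88 as deposited, and the higher ones nearer, as Hsp90aa1 at 0.47, Hspd1 at 0.24, Cct3 at 0.08 and Hspa8 at 0.02. As deposited 0 members were called. An unadjusted p under 0.05 was reached by 3 of the 32, all lower, and by 4411 of the 45037 probe sets, so this count does not set the members apart. Over all probe sets 3 were called higher and 32 lower, against 71 and 118 with quantile normalization.

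**Figure D4:**
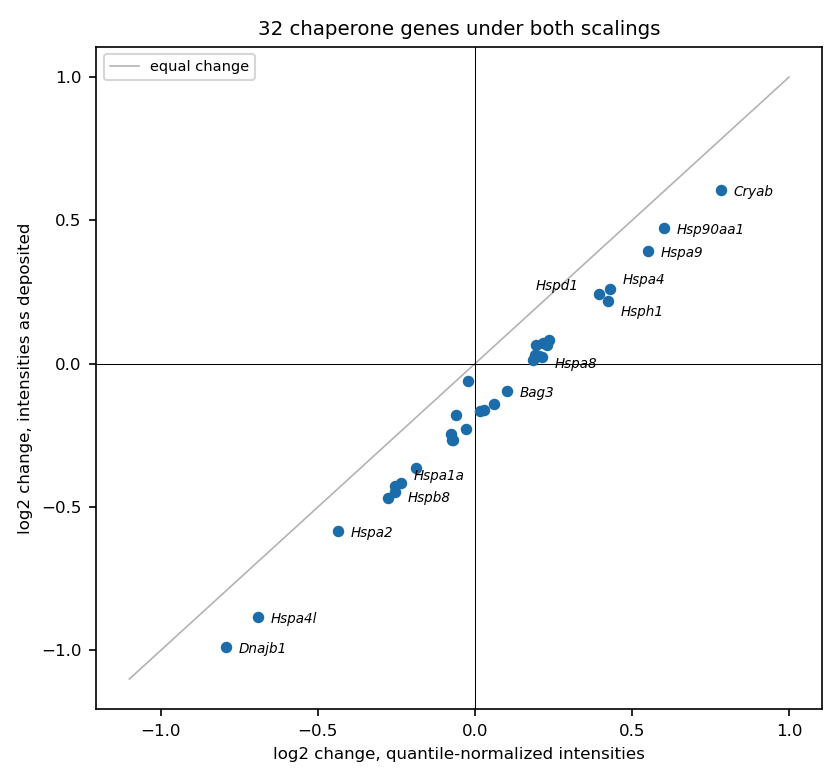
Log2 change of the 32 chaperone genes with quantile-normalized intensities (horizontal) and with intensities as deposited (vertical), with a grey line of equal change. All points lie below the line, 4 of them turn from positive to negative, and Dnajb1 and Cryab mark the ends on both axes.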

How the data were processed

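Gene expression was measured on 6 single-colour Affymetrix arrays. RNA was extracted with Trizol and labelled with biotin by in vitro transcription, per the labels' protocols. The values the authors deposited are linear intensities, 1 for each probe set on each array. Their background correction, probe summary and scaling are not stated in those sources. Trimmed means of the deposited intensities differed by up to 1.57-fold between arrays, so the intensities were quantile-normalized. In litters A, B and C the trimmed means were 72.8, 89.6 and 114.3 for controls and 73.9, 92.0 and 73.4 for knockouts. The widest gap within a litter was that of litter C.

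The 64 control probe sets were left out. The test was run on log2(intensity + 16) with limma 3.58.1 and R 4.3.3 (lmFit, and eBayes with an intensity trend), two-sided, over 45037 probe sets. Litter was a block because the submitters' design compares pools of a single litter and the labels name it. Deviations of the control and knockout of a litter from their genotype's mean were weakly correlated in litters A (r = 0.17) and C (0.21). In litter B they were hardly correlated (0.047). The labels call the arrays biological replicates. Probe sets were named through GEO's annotation of the array, with symbols updated through RefSeq gene IDs: 34945 probe sets had 1 gene, 932 several and 9160 none listed. On simulated arrays with 200 changed probe sets brighter than the median, 36.6% of 2-fold and 94.9% of 4-fold changes were found and 4.72% of calls were false.

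The members and lists were chosen with earlier results of these data known. Values per array were given for members with an unadjusted p under 0.05 or no overlap between groups, Hspa1a, Hspa1b, Hsf2 and the 3 brightest, with Hspa2 added after its values were seen, and up to 4 genes of each other list with the smallest p were named. Some cell type markers were named outside this rule. The alternatives tried were 2 other scalings, no block, each litter left out, pseudocounts of 1 and 64, a filter on dim probe sets, the mean of a gene's probe sets and no trend.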

Additional observations from a re-analysis of the deposited data

How the results depend on the processing

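The 3 arrays per genotype limit what could be called, and 45.4% to 50.1% of deposited intensities on an array were under 16. Members called higher and lower numbered 0 and 0, and these counts held with intensities as deposited, with no litter block, with a pseudocount of 64, with the mean of a gene's probe sets, with no intensity trend and without litter A or litter B. They were 0 and 1 with arrays shifted to a common median (Dnajb1), 0 and 2 with a pseudocount of 1 (Hspa4l and Dnajb1), and 3 and 3 without the 40% dimmest probe sets (Hspa4, Hsp90aa1 and Hspd1, and Hspa4l, Hspb1 and Dnajb1), where 27022 probe sets were tested. Under these 3 settings 1.58%, 1.33% and 4.18% of all probe sets tested were called, against 3.12%, 6.25% and 18.8% of the members. Leaving out a litter gave 0 to 6 members higher and 0 to 3 lower, a median of 0.0528 to 0.118, 0 to 1354 probe sets higher and 0 to 1419 lower (0 without litter B by limma, with 3700 at an unadjusted p under 0.05), and 0 to 6 other chaperones called; the highest counts came without litter C.

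Probe sets called higher and lower numbered 3 and 32 as deposited, 198 and 512 with arrays shifted to a common median, 271 and 330 with a pseudocount of 1, 27 and 32 with a pseudocount of 64, 521 and 609 without the 40% dimmest, and 0 and 6 with no intensity trend. Without the litter as a replicate block they numbered 60 and 75, and no member's call changed. The members' median was -0.12 as deposited, -0.059 with arrays shifted to a common median and, in an alternative chosen after seeing the data, -0.052 as deposited minus the median of all probe sets. As deposited, the control of litter C was the brightest array, with a trimmed mean of 114.3 against 73.4 for its knockout. In litters A and B the control and knockout were close (72.8 and 73.9, 89.6 and 92.0). The part of litter C in these shifts, and their cause, was not tested.

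Members that changed sign were all uncalled. As deposited these were Dnaja3 (-0.14), Dnajb4 (-0.16), Dnajb6 (-0.17) and Bag3 (-0.095), and with arrays shifted Dnaja3 (-0.082), Dnajb4 (-0.10), Dnajb6 (-0.11) and Bag3 (-0.035). Leaving out a litter, Dnaja3 ran from -0.015 (without A) to 0.15, Bag3 from -0.030 (without A) to 0.20, Trap1 from -0.18 to 0.034 (without A), Dnajb5 from -0.21 to 0.032 (without B), Dnajb6 from -0.018 (without B, and -0.0064 without C) to 0.071, Dnajb4 from -0.17 (without C) to 0.18 and Hsf2 from -0.0998 to 0.10 (without C). With the mean of a gene's probe sets they were Hspa14 (0.17), Dnajb4 (-0.012), Hsf2 (0.046) and Trap1 (0.028).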
